A study of Mus musculus with 8 samples.

Results

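Expression of 10 genes of the circadian clock was described in mouse skin with and without exposure to house dust mite (HDM) allergen. The genes were Arntl, Npas2, Per1, Per2, Per3, Cry1, Nr1d1, Nr1d2, Dbp and Tef, and all 10 were found among the 22740 protein-coding genes listed. They had been chosen by their measured levels in baseline and lesional skin of these same mice. Values for that comparison are therefore given for these genes as a description without a test, whereas the effect of butyrate on them was tested. All 10 passed the filter on low counts, as did 15163 genes in all.

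RNA of whole dorsal skin was sequenced from 8 female BALB/c mice, which formed 4 groups of 2 and gave 1 library each. The age given is 6 to 8 weeks for mice in which allergen exposure was begun, and ages at sampling are not given. All mice were on a low-fibre diet. Drinking water held 400 mM sodium butyrate for the butyrate mice, from 2 weeks before the time of allergen exposure, and nothing added for CTL mice. Lesional skin had been shaved and exposed 4 times to 15 µg HDM under an occlusive patch within 2 weeks, with the mice anaesthetised for it, and butyrate was continued throughout in the butyrate mice. Baseline skin was never exposed to allergen and was taken when the butyrate treatment ended. The groups are named baseline CTL (replicates 1 and 2), baseline butyrate (replicates 1 and 3), lesional CTL (replicates 4 and 5) and lesional butyrate (replicates 3 and 4). The hour at which skin was taken is not given in the sources used here. The labels of baseline mice begin with 5 and those of lesional mice with 6. Lesional and baseline skin therefore differ in allergen and set of mice, and may differ in patch, anaesthesia, shaving, hour of sampling and age. These cannot be told apart in any comparison of lesional with baseline skin.

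The circadian clock is a feedback loop of transcription that runs in most cells, including those of the skin, with a period of about a day. The activators BMAL1 (encoded by Arntl) and CLOCK or its relative NPAS2 bind E-boxes and switch on the Period and Cryptochrome genes, whose proteins return to the nucleus and inhibit the activators. The same activators drive Nr1d1 and Nr1d2, whose products repress Arntl, Npas2 and Cry1 through ROR elements, and Dbp and Tef, whose products act on D-boxes. As a result Arntl and Npas2 mRNA normally peak at about the opposite phase to Dbp, Nr1d1 and Per3 mRNA, so that levels of these genes depend on the hour at which a tissue is taken.

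Promoter windows from 250 bases before to 50 after annotated starts show which exact letters of these elements lie near the starts of the genes. Elements further away, or with other letters, were not searched for. A window without these letters therefore does not show that its gene lacks the element. RefSeq promoters (GRCm38.p6) were matched for 9 of the 10 genes, in 12 windows, and were searched on both strands for the E-box CACGTG, the E'-box CACGTT, the D-boxes TTATGTAA and TTACGTAA, and the ROR element TAGGTCA. Per2 was not matched. The E-box was present in 3 of the 9 genes, Per1, Cry1 and Tef. It was in 4 of their 12 windows and in 7.15% of all 32851 promoter windows. It began 166 bases before the start in Per1, 60 bases before it in Cry1, and 127 and 138 bases before it in the 2 windows of Tef. The E'-box was present in Cry1 (79 bases before the start) and Nr1d1 (28 bases before), thus in 2 of the 12 windows, and in 4.68% of all windows. The D-box was present in Per3 only, at 205 and 158 bases before its start, thus in 1 of the 12 windows, and in 1.06% of all windows. The ROR element was present in Arntl only, 30 bases after the start of its second window, and in 2.61% of all windows. The windows of Npas2, Nr1d2 and Dbp held none of these letters. Of the 7 windows that do, 6 are shown here (1 per gene, for Tef the first), 5′ to 3′ on the strand of the gene with the elements in capitals, since both genes that were lower (Per1, Tef) and one that was higher (Cry1) in lesional skin carry the same E-box. AACGTG is the E'-box read from the other strand. They lie at chr11:69098699-69098998 (plus strand) for Per1, chr15:81802423-81802722 (plus strand) for Tef, chr10:85185005-85185304 (minus strand) for Cry1, chr11:98775328-98775627 (minus strand) for Nr1d1, chr4:151044616-151044915 (minus strand) for Per3 and chr7:113207261-113207560 (plus strand) for Arntl.
Per1: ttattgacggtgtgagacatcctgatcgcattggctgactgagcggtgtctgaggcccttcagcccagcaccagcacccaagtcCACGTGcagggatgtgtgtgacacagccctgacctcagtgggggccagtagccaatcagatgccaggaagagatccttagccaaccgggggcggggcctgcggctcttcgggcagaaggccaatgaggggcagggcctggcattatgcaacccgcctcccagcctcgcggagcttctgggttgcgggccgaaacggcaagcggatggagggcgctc
Tef: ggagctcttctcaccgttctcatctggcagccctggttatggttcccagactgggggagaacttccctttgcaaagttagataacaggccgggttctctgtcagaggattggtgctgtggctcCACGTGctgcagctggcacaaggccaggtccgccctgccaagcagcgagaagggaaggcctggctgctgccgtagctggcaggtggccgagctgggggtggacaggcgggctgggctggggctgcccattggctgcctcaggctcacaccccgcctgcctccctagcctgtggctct
Cry1: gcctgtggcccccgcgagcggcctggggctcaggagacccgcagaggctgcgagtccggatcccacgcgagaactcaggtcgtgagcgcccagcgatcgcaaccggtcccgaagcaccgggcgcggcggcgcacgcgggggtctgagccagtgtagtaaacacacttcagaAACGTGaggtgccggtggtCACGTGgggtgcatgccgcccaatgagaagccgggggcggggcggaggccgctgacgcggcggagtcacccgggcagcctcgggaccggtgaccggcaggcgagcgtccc
Nr1d1: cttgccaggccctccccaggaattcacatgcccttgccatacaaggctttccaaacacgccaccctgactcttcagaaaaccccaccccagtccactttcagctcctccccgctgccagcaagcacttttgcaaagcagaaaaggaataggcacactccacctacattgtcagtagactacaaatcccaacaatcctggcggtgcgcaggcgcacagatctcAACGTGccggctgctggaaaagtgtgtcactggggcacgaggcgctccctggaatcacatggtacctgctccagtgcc
Per3: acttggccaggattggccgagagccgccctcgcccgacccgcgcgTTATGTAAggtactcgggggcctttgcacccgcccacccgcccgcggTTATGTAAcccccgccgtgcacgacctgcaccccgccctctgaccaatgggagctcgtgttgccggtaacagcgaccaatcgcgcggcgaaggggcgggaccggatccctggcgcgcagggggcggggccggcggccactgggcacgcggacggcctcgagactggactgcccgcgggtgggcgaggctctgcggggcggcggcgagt
Arntl: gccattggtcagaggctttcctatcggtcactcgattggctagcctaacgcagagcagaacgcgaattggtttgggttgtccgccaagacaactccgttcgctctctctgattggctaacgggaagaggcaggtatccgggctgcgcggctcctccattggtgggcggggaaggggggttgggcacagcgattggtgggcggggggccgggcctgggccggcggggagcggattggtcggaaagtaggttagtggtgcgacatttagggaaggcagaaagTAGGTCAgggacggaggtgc

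The libraries held 18004136 to 21085544 counts, and TMM factors were between 0.946 and 1.04. The 10 clock genes had between 46 (Npas2) and 6541 (Tef) counts in a library. Baseline butyrate replicate 3 stood apart from the other libraries. Its 7 markers of hair follicles in growth summed to 7667 CPM, against 12.7 to 24.5 CPM in the other 7 libraries, and its 4 keratinocyte markers summed to 7634 CPM, against 12674 to 19378 CPM. Its Krt1 was at 371 CPM and Krt10 at 1062 CPM, against 2953 to 3347 and 6649 to 6932 CPM in the other baseline libraries. Krt5 and Krt14 were closer to those libraries, at 3787 CPM against 4173 to 4932 CPM and at 2413 CPM against 2506 to 2802 CPM. All 4 neutrophil markers were higher in lesional skin without overlap, with sums of 343 to 2633 CPM against 13.0 to 21.6 CPM. The 5 skeletal muscle markers summed to 28894 to 37369 CPM in the other 3 baseline libraries, to 7740 CPM in baseline butyrate replicate 3 and to 10648 to 19405 CPM in lesional skin. No defining marker of these 4 lists was at 0 in every library. The part of these shifts in marker levels in the levels of the clock genes was not tested. In whole skin a change in the number of cells of a type and a change in RNA per cell cannot be told apart. Results that involve baseline butyrate replicate 3 are given with and without it.

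Lesional skin had higher Arntl and Cry1 and lower Per1, Per3, Nr1d1, Nr1d2, Dbp and Tef than baseline skin in CTL mice, with Per2 and Npas2 overlapping. The mean log2 fold changes over both treatments ran from -2.13 in Per1 to 0.87 in Cry1. Of the 10 genes, 6 had all 4 lesional libraries outside the range of the 4 baseline libraries (5 lower and 1 higher), and 18.0% of all genes tested had such separated sets. Without baseline butyrate replicate 3 the sets of 8 genes were separated, and those of 46.5% of all genes. These counts follow from how the genes were chosen. The median log2 fold change was -1.05 over the 10 genes and -0.03 over all 15163.

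Among the activators, Arntl (chr7:113207465-113314126, GRCm38) encodes BMAL1, the partner of CLOCK or NPAS2 in the activating complex. Its levels were 25.3 and 24.9 CPM in baseline CTL skin, 20.5 and 25.2 CPM in baseline butyrate skin, 31.6 and 33.8 CPM in lesional CTL skin, and 45.6 and 36.8 CPM in lesional butyrate skin. Every lesional library was above every baseline library, baseline butyrate replicate 3 included. The log2 fold change was 0.38 (standard error 0.17) in CTL mice and 0.85 (0.17) in butyrate mice.

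Npas2 (chr1:39193731-39363236) encodes a partner of BMAL1 that can take the place of CLOCK. It was at 7.09 and 4.65 CPM in baseline CTL skin, 3.04 and 2.19 CPM in baseline butyrate skin, 4.84 and 5.57 CPM in lesional CTL skin, and 6.66 and 7.75 CPM in lesional butyrate skin. Lesional and baseline CTL mice overlapped, while both lesional butyrate mice were above both baseline butyrate mice. Its log2 fold change was -0.17 (0.31) in CTL mice and 1.47 (0.32) in butyrate mice.

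Of the repressors, Per1 (chr11:69095217-69109960) encodes a Period protein and is also induced acutely by several hormones and signals. Its levels were 129 and 136 CPM in baseline CTL skin and 104 and 80.3 CPM in baseline butyrate skin. In lesional skin they were 23.6 and 30.2 CPM in CTL and 29.3 and 17.9 CPM in butyrate mice. The highest lesional library lay below the lowest baseline library by more than the whole lesional range, and this held with and without baseline butyrate replicate 3. Fitted log2 fold changes were -2.30 (0.28) in CTL mice and -1.97 (0.28) in butyrate mice.

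Per2 (chr1:91415982-91459324), the closest relative of Per1 in the loop, did not share this shift. It was at 33.5 and 31.8 CPM in baseline CTL, 49.3 and 36.8 CPM in baseline butyrate, 33.2 and 28.7 CPM in lesional CTL, and 53.9 and 31.0 CPM in lesional butyrate skin. The groups overlapped, and the log2 fold change was -0.08 (0.29) in CTL mice and -0.02 (0.29) in butyrate mice. Within a library, the log2 ratio of Per1 to Per2 was 1.08 to 2.09 in baseline skin and -0.88 to 0.07 in lesional skin.

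Per3 (chr4:151003652-151044665), a Period gene that is dispensable for the loop itself, was lower in lesional skin. It was at 91.7 and 83.0 CPM in baseline CTL and 112 and 53.7 CPM in baseline butyrate skin, against 37.6 and 34.4 CPM in lesional CTL and 35.4 and 40.0 CPM in lesional butyrate skin. All 4 lesional libraries were lower than baseline butyrate replicate 3, the lowest of the baseline libraries. The log2 fold change was -1.28 (0.33) in CTL mice and -1.13 (0.33) in butyrate mice, and -1.56 (0.13) in the latter without that library.

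Cry1 (chr10:85131700-85185064), a cryptochrome whose mRNA normally rises later in the cycle than that of the Period genes, was higher in lesional skin. Its levels were 12.8 and 12.3 CPM in baseline CTL, 15.1 and 26.8 CPM in baseline butyrate, 26.5 and 24.7 CPM in lesional CTL and 40.7 and 28.1 CPM in lesional butyrate skin. Baseline butyrate replicate 3 was at the level of the lesional CTL mice, and the other 3 baseline libraries were below all lesional ones. Its log2 fold change was 1.02 (0.31) in CTL mice. In butyrate mice it was 0.72 (0.31), and 1.19 (0.24) without baseline butyrate replicate 3.

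**Figure D1:**
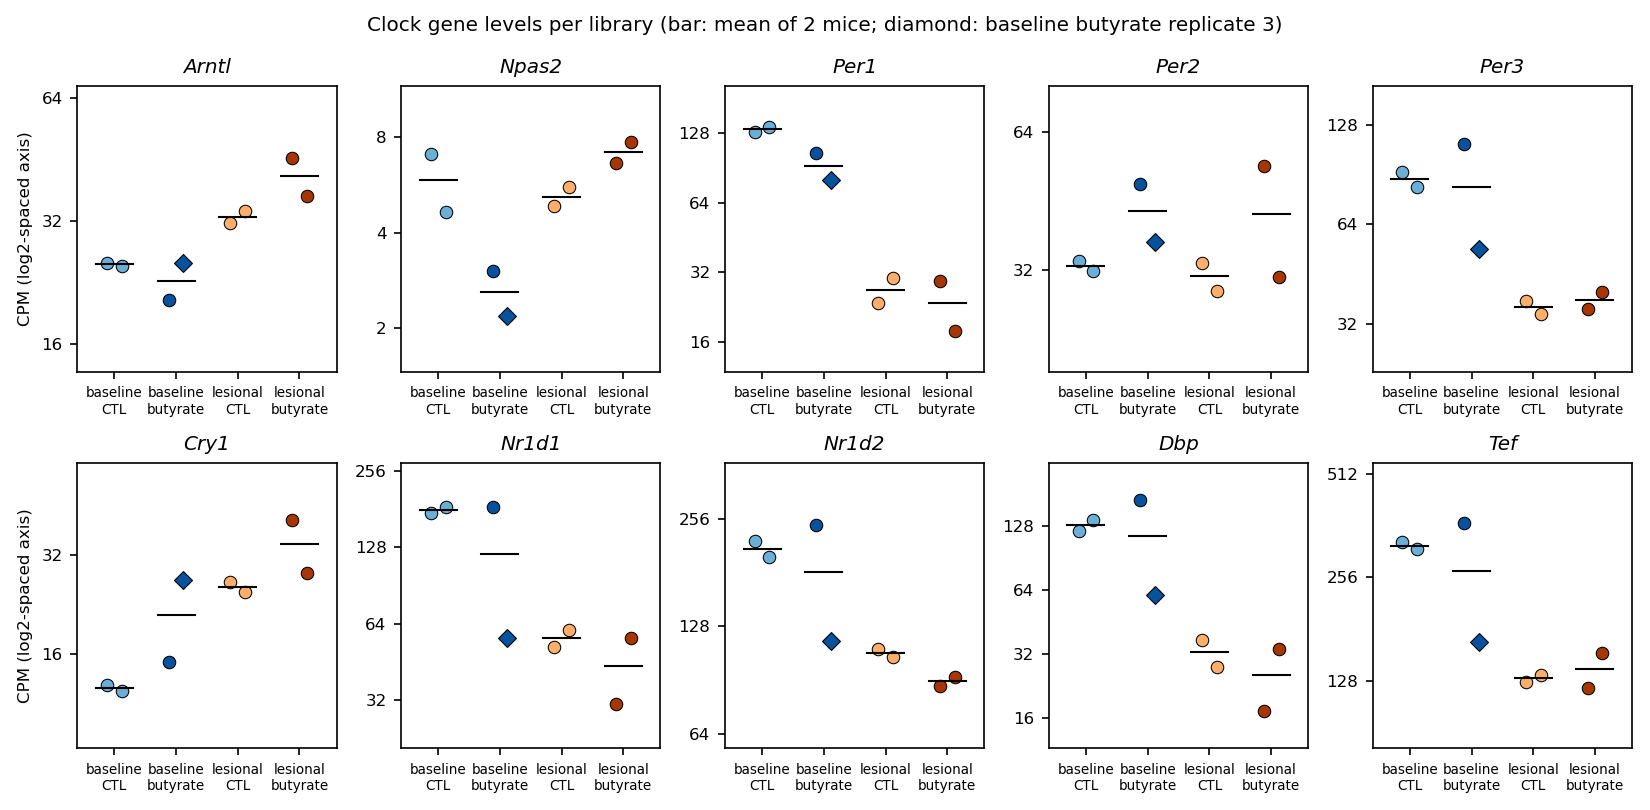
Level of each of the 10 clock genes in the 8 libraries, as TMM-scaled CPM on a log2-spaced axis, by group, with points for mice and bars for the mean of 2 mice. Per1 fell from 80.3 to 136 CPM in baseline skin to 17.9 to 30.2 CPM in lesional skin, and for Nr1d1 baseline butyrate replicate 3 (diamond) lay at 56.1 CPM, against 184 CPM in the other mouse of its group.

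The Rev-erb receptors repress the activators and are among the strongest outputs of the E-box arm. Nr1d1 (chr11:98767932-98775333) was at 175 and 184 CPM in baseline CTL, 184 and 56.1 CPM in baseline butyrate, 51.7 and 60.4 CPM in lesional CTL, and 31.0 and 56.0 CPM in lesional butyrate skin. Baseline butyrate replicate 3 fell within the lesional range, and the other 3 baseline libraries were well above it. The log2 fold change was -1.68 (0.56) in CTL mice and -1.46 (0.55) in butyrate mice, and -2.08 (0.31) in the latter without baseline butyrate replicate 3. Nr1d1 shares 263 bases of exon with Thra on the opposite strand.

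Nr1d2 (chr14:18204054-18239127) followed the same order of groups at a smaller size. It was at 222 and 201 CPM in baseline CTL, 246 and 117 CPM in baseline butyrate, 111 and 105 CPM in lesional CTL, and 87.4 and 92.1 CPM in lesional butyrate skin. Lesional libraries were all lower than baseline libraries, with baseline butyrate replicate 3 just above them. The log2 fold change was -0.97 (0.33) in CTL mice and -1.02 (0.33) in butyrate mice, and -1.46 (0.12) in the latter without baseline butyrate replicate 3.

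Dbp and Tef encode PAR bZIP factors, which carry the rhythm of the clock to metabolic and detoxifying enzymes. Dbp (chr7:45705088-45710203) was at 122 and 137 CPM in baseline CTL, 170 and 60.7 CPM in baseline butyrate, 37.5 and 27.8 CPM in lesional CTL, and 17.3 and 33.8 CPM in lesional butyrate skin. The lesional libraries were below all baseline libraries, and lesional butyrate replicate 3 was the lowest of the 8. Its log2 fold change was -1.99 (0.54) in CTL mice and -2.17 (0.54) in butyrate mice, and -2.73 (0.36) in the latter without baseline butyrate replicate 3. Dbp shares 539 bases of exon with Sphk2 on the opposite strand.

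Tef (chr15:81802421-81826863) was at 323 and 309 CPM in baseline CTL and 368 and 166 CPM in baseline butyrate skin. In lesional skin it was at 127 and 134 CPM in CTL and 123 and 154 CPM in butyrate mice. Again the lesional libraries were lower than every baseline library and closest to baseline butyrate replicate 3. The fitted change was -1.28 (0.36) in CTL mice and -0.95 (0.36) in butyrate mice, and -1.41 (0.15) in the latter without that library.

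**Figure D2:**
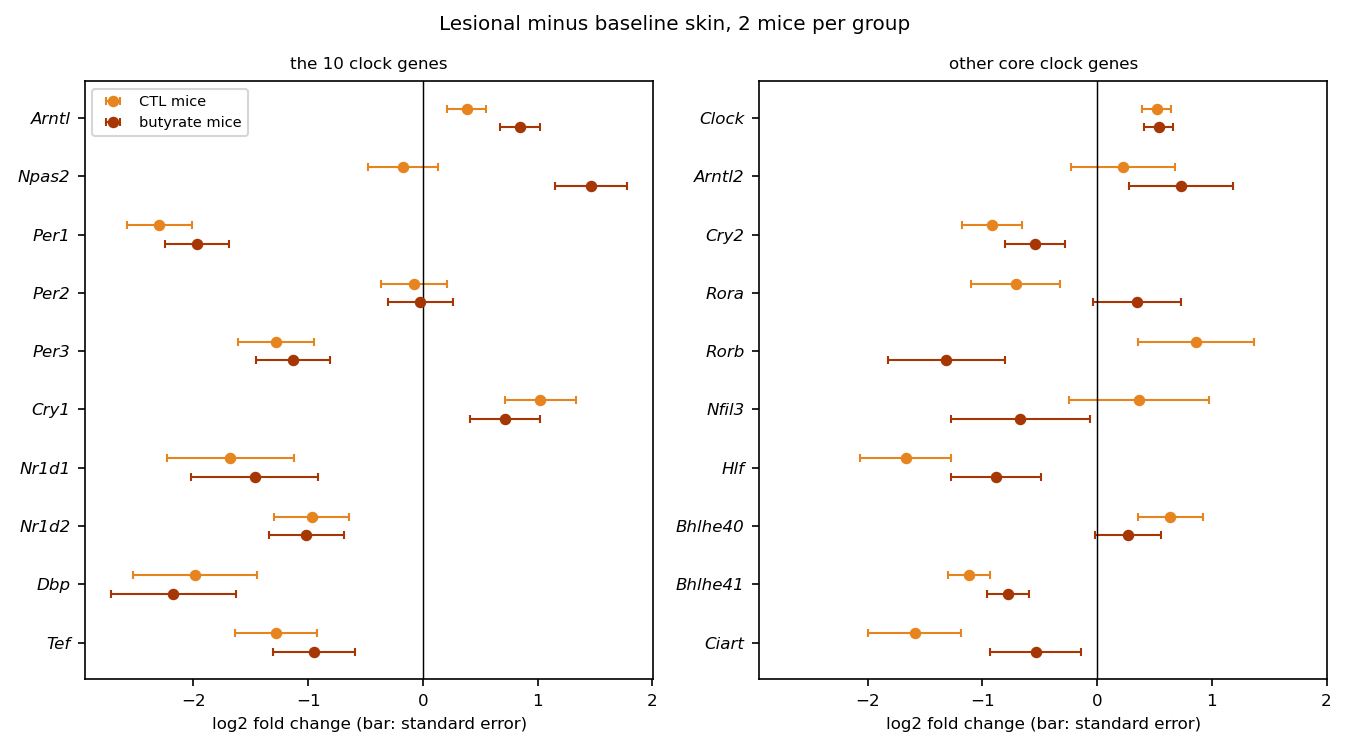
Fitted log2 fold changes between lesional and baseline skin in CTL and in butyrate mice, with standard errors, for the 10 clock genes (left) and 10 other core clock genes (right). Per1, Per3, Nr1d1, Nr1d2, Dbp and Tef were below 0 and Arntl and Cry1 above 0 in both treatments, while Npas2 was at -0.17 in CTL mice and at 1.47 in butyrate mice.

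Levels were compared between genes per kilobase of exon. In baseline CTL skin the order from high to low was Nr1d1 (58.3 ± 2.15 CPM per kilobase, SD, n = 2), Dbp (43.3 ± 3.73), Tef (40.2 ± 1.31), Nr1d2 (39.1 ± 2.85), Per1 (23.5 ± 0.863), Per3 (9.10 ± 0.640), Per2 (5.58 ± 0.199), Cry1 (3.76 ± 0.0971), Arntl (3.33 ± 0.0394) and Npas2 (1.23 ± 0.361). In that list Dbp, Tef and Nr1d2 overlapped as neighbours and the other steps exceeded the range of the 2 mice. In lesional CTL skin Nr1d2 led at 20.0 ± 0.785 CPM per kilobase (SD, n = 2), followed by Nr1d1 at 18.2 ± 1.99, Tef at 16.6 ± 0.580 and Dbp at 10.9 ± 2.31, and the ranges of Nr1d1 overlapped with those of Nr1d2 and Tef. There Cry1, at 7.66 ± 0.390, was above Per2 (5.29 ± 0.543) and Per1 (4.78 ± 0.829), whose ranges overlapped with each other. Arntl followed at 4.34 ± 0.208, within the range of Per1, then Per3 at 3.75 ± 0.236 and Npas2 at 1.09 ± 0.107.

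Ratios within a library do not depend on how libraries are scaled. The log2 ratio of Arntl to Dbp was -2.27 and -2.47 in baseline CTL, -3.05 and -1.27 in baseline butyrate, -0.25 and 0.28 in lesional CTL, and 1.40 and 0.12 in lesional butyrate skin. All lesional libraries were above all baseline libraries, and the means were 0.39 ± 0.71 (SD, n = 4) and -2.26 ± 0.74 (SD, n = 4). Without baseline butyrate replicate 3, the baseline mean was -2.60 ± 0.41 (SD, n = 3). The mean log2 level of both activators minus that of Per1, Per2, Per3, Dbp, Tef, Nr1d1 and Nr1d2 ran from -4.24 to -3.27 in baseline skin and from -2.02 to -1.34 in lesional skin. The log2 ratio of Cry1 to Nr1d1 was -3.90 to -1.07 in baseline and -1.29 to 0.39 in lesional skin, which overlapped through baseline butyrate replicate 3 alone. These sets were in view when the genes were chosen, so no test was made across them, and whether the hour of sampling differed between the sets was not tested because that hour is not given.

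**Figure D3:**
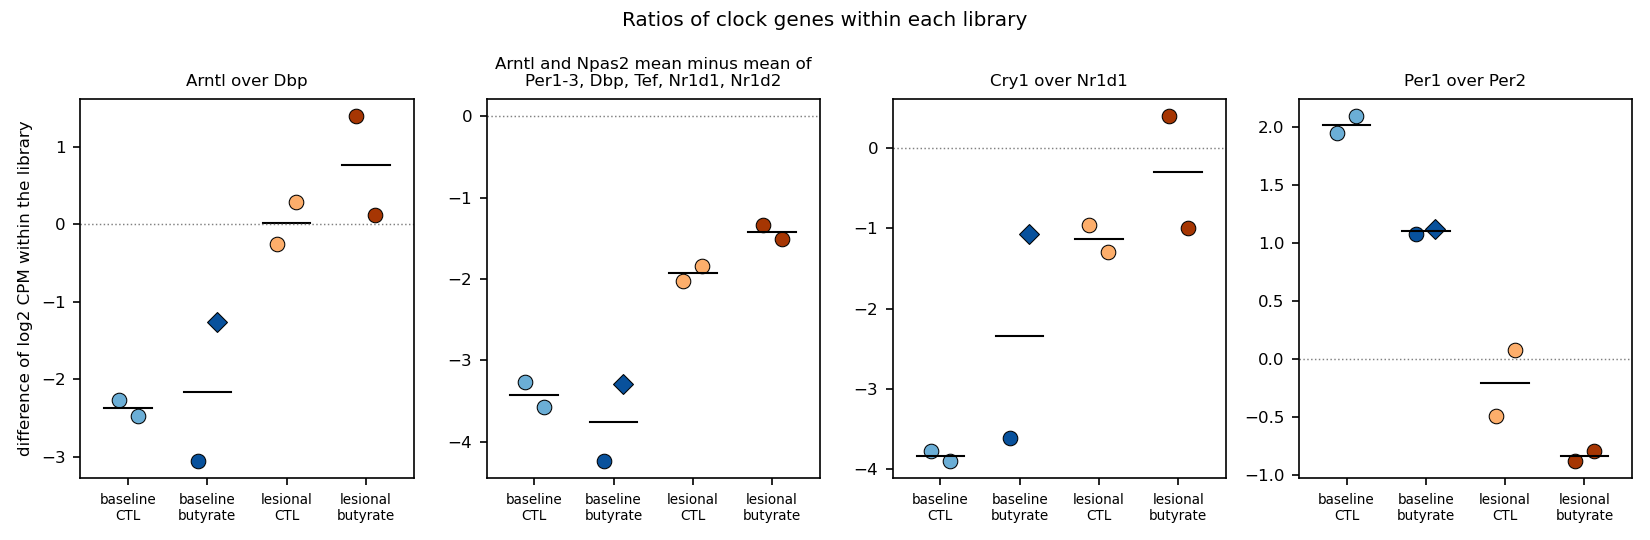
Differences of log2 CPM within each library for Arntl over Dbp, both activators against 7 repressors and outputs, Cry1 over Nr1d1 and Per1 over Per2, with points for mice and bars for group means. For Arntl over Dbp, the activators against the outputs, and Per1 over Per2, no lesional library overlaps a baseline library, and for Cry1 over Nr1d1 baseline butyrate replicate 3 (diamond, -1.07) lies among the lesional libraries.

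Replicates of a group were not equally alike. The baseline CTL mice and the lesional CTL mice each had 0 of the 10 genes more than 2-fold apart. Of genes with at least 1 CPM on average, 1.85% were as far apart in baseline CTL and 1.30% in lesional CTL mice. The baseline butyrate mice had 5 of 10 more than 2-fold apart (Per3, Nr1d1, Nr1d2, Dbp and Tef), and 26.2% of genes with at least 1 CPM on average were as far apart. Relative to replicate 1, replicate 3 was lower by log2 differences of -1.71 in Nr1d1 and -1.49 in Dbp, and higher by 0.83 in Cry1 and 0.30 in Arntl. The lesional butyrate mice had 0 of 10 more than 2-fold apart, and 4.58% of genes were. Still, replicate 4 was above replicate 3 by 0.96 in Dbp and 0.85 in Nr1d1 on the log2 scale, and below it by -0.80 in Per2, -0.71 in Per1 and -0.53 in Cry1.

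The other core clock genes, a list drawn up with earlier results of these data known, were tested between lesional and baseline skin within the fit of all 15163 genes. With edgeR's quasi-likelihood test and Benjamini-Hochberg adjustment, 5 of 11 passed an FDR below 0.1 (1 higher and 4 lower), as did 11.3% of all genes. By limma-voom 4 of 11 passed, without Ciart, and by DESeq2 the 5. Clock, the partner of Arntl, rose to a log2 fold change of 0.53 (standard error 0.09, FDR = 0.0289), from 49.3 to 66.0 CPM in baseline to 76.3 to 92.7 CPM in lesional skin. Hlf, the third PAR bZIP factor, fell by 1.27 on the log2 scale (0.28, FDR = 0.0565), with all lesional libraries below the baseline libraries. Bhlhe41 (DEC2), an E-box repressor, fell by 0.94 (0.13, FDR = 0.0188), and the second cryptochrome Cry2 fell by 0.73 (0.18, FDR = 0.0787). Ciart, a repressor of the CLOCK complex, fell by 1.06 (0.28, FDR = 0.0894), although its baseline and lesional ranges, 6.84 to 15.7 and 4.60 to 8.85 CPM, overlapped through baseline butyrate replicate 3. Hlf and Ciart also changed more than 2-fold and so met both thresholds of the study, a fold-change above 2 at an FDR below 0.1, as did 5.22% of all genes. With 1 mouse left out in turn, Hlf and Ciart were called without baseline butyrate replicate 3, Bhlhe41 without lesional butyrate replicate 4, and 0 of the 11 in the other 6 fits. Among those that did not pass were genes with log2 fold changes of 0.48 (FDR = 0.391) for Arntl2, 0.45 (0.228) for Bhlhe40, -0.18 (0.708) for Rora, -0.23 (0.717) for Rorb and -0.15 (0.851) for Nfil3.

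By treatment, the same test called 3.58% of all genes in CTL mice and 0.35% in butyrate mice. In CTL mice Bhlhe41 was called, with a log2 fold change of -1.11 (0.18), a call that was lost without any 1 of the 4 CTL mice. DESeq2 called 3 there (Bhlhe41, Ciart and Hlf) among 1093 genes in all, and limma-voom 1 among 578. Without baseline butyrate replicate 3 the log2 fold changes in CTL mice were -1.11 for Bhlhe41, -1.59 for Ciart and -1.66 for Hlf. In butyrate mice 0 of the 11 were called by edgeR, limma-voom or DESeq2, with 3 at an unadjusted p below 0.05 by edgeR. Without baseline butyrate replicate 3 the log2 fold changes in butyrate mice were -1.01 for Ciart and -1.38 for Hlf. Which genes were called there changed with the baseline butyrate mouse left out, and each such fit rests on a single mouse of that group. In the mean of both treatments, 2 of 7 rhythmic outputs passed an FDR below 0.1, as did 11.3% of all genes, and both fell. The values that follow in this paragraph are of that same comparison of lesional with baseline skin. Pdk4, a kinase that restrains glucose oxidation, fell by 2.39 (0.52, FDR = 0.0555) and the cell cycle kinase Wee1 fell by 0.72 (0.12, FDR = 0.0260). Of 5 glucocorticoid-responsive genes 2 passed, Tsc22d3 with a fall of 1.53 (0.36, FDR = 0.0685) and Klf9 with a fall of 0.93 (0.26, FDR = 0.0996). In both, baseline butyrate replicate 3 alone lay within the lesional range. It was at 115 CPM against 80.7 to 119 CPM for Tsc22d3, and at 42.6 CPM against 34.8 to 53.1 CPM for Klf9. By limma-voom 1 of the 5 passed, which was Tsc22d3, and by DESeq2 3, with Zbtb16 besides. Of 9 immediate early genes 0 passed by edgeR, with 2 at an unadjusted p below 0.05, and limma-voom passed 0 and DESeq2 1, which was Junb. The largest log2 fold changes were 0.58 (0.21, FDR = 0.157) for Junb, 0.40 (0.15, FDR = 0.183) for Ier2 and -0.38 (0.17, FDR = 0.235) for Dusp1.

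Butyrate was given to 2 of the 4 mice in each set, and its effect was tested for all 10 genes within baseline and within lesional skin. In lesional skin edgeR's quasi-likelihood test called 0 of the 10 genes and 0% of all genes, with 0 of the 10 and 734 of all genes at an unadjusted p below 0.05. The FDR was 1.00 for each of the 10. DESeq2 called 124 genes and limma-voom 1, none of them among the 10. Nominally Npas2 (0.47, standard error 0.31), Per2 (0.45, 0.29), Cry1 (0.43, 0.31) and Arntl (0.33, 0.17) had the largest positive log2 fold changes, and Nr1d1 (-0.37, 0.55) and Dbp (-0.35, 0.53) the largest negative ones. The butyrate and CTL mice of lesional skin did not overlap in Arntl, Npas2, Cry1 and Nr1d2, which is 4 of 10, and in 44.9% of all genes.

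In baseline skin edgeR likewise called 0 of the 10 genes and 0% of all genes, with 1 of the 10 and 529 of all genes at an unadjusted p below 0.05. The FDR was 0.714 to 0.924 for the 10. DESeq2 called 58 genes and limma-voom 0, none of them among the 10. Npas2 had the largest change, a log2 fold change of -1.17 (standard error 0.32, unadjusted p = 0.00898, FDR = 0.714), followed by Cry1 at 0.74 (0.31, FDR = 0.714). Both mice of each group were separated in Npas2, Per1, Per2 and Cry1, again 4 of 10, and in 29.7% of all genes. For Nr1d1, Nr1d2, Dbp, Per3 and Tef the mean of baseline butyrate skin averaged mice on either side of a 2-fold gap. Without replicate 3, edgeR called 0 of the 10 genes. Without replicate 1 it called Cry1, Dbp, Npas2 and Nr1d1, with Nr1d1 at -1.68 (0.34, FDR = 0.0128), and 3777 genes in all, on the single mouse that stood apart.

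Butyrate effects were then compared between lesional and baseline skin, and their difference was called in 0 of the 10 genes and 0% of all genes by edgeR, with 1 of the 10 and 703 of all genes at an unadjusted p below 0.05. limma-voom called 0 genes, and DESeq2 37, none of them among the 10. The FDR was 0.840 to 0.979. Npas2 was the gene with the widest difference, lower with butyrate in baseline skin and higher in lesional skin, at a log2 difference of 1.64 (standard error 0.44, FDR = 0.840). Standard errors of the difference were 0.24 to 0.77 on the log2 scale with 2 mice per group, and an FDR above the threshold does not show that the effects were alike. Each butyrate comparison shares its mice with comparisons of lesional and baseline skin. Among the other core clock genes edgeR, limma-voom and DESeq2 called 0 of 11 in each of these 3 comparisons, with 1 at an unadjusted p below 0.05 in each. Without baseline butyrate replicate 1, the group held only replicate 3, the mouse that stood apart, and calls among the 11 in that fit rest on it. The largest log2 fold changes in baseline skin were then 1.71 for Nfil3, -1.52 for Arntl2, 1.44 for Rorb, -1.25 for Hlf, -1.21 for Rora and -1.12 for Ciart. For the difference they ran from -2.60 for Rorb to 1.81 for Rora. The gene with a low unadjusted p in lesional skin was Bhlhe41, at 0.77 (0.18, FDR = 0.737 by edgeR and 0.0665 by DESeq2). In the lists of rhythmic outputs, glucocorticoid-responsive and immediate early genes the lowest FDR by edgeR was 0.714, in baseline skin.

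**Figure D4:**
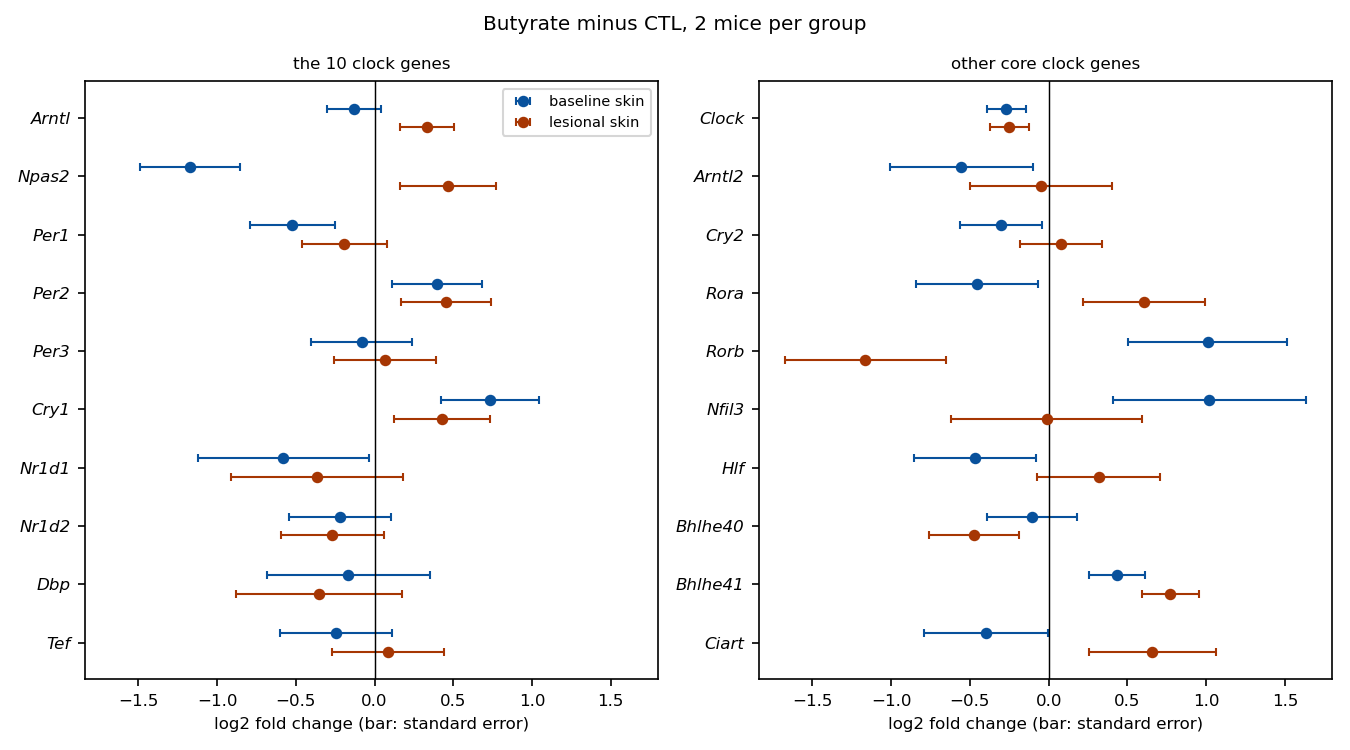
Fitted log2 fold changes between butyrate and CTL mice in baseline and in lesional skin, with standard errors, for the 10 clock genes (left) and 10 other core clock genes (right). Npas2 lies at -1.17 in baseline and 0.47 in lesional skin, and most of the other bars cross or come near 0.

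Genes among those whose pattern over the 8 libraries was most like that of Dbp, out of 12382 non-members with a mean of at least 5 CPM, were Decr1 (Pearson r = 0.99 of log2(CPM + 1)), Gstm4 (0.99), Hint2 (0.98) and Mgst3 (0.97). The ranking is a description over libraries that share the lesional and baseline split, and carries no test. Among the 10 clock genes, Per3 (r = 0.97), Nr1d2 (0.96), Tef (0.96), Nr1d1 (0.95) and Per1 (0.88) varied with Dbp, and Arntl (-0.94) and Cry1 (-0.93) against it, while Per2 (-0.01) did not follow it. The genes most like Arntl were Rab38 (0.97), Cmtr2 (0.96), Atp13a1 (0.96), G3bp1 (0.96) and Cnfn (0.95).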

How the data were processed

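Per the labels, the authors used STAR 2.5.2 for alignment to GRCm38 and featureCounts for counting, and deposited raw counts of protein-coding genes, labelled as reverse-stranded, without normalization. The library kit is named without its strandedness, so counts of genes that overlap on opposite strands are uncertain. CPM were computed from TMM-scaled library sizes (edgeR 4.0.16, R 4.3.3). Genes passing filterByExpr (minimum count 10) were tested by edgeR's quasi-likelihood test (robust), with 1 mean per group over 8 mice and 4 residual degrees of freedom, and were called where the fold-change was above 2 and the FDR (Benjamini-Hochberg) below 0.1. Fold changes used a prior count of 0.125, and standard errors were derived from the F statistics. Nothing states that the mice of a group were littermates or independent cohorts. The members and gene lists were chosen with earlier results of these data known. Text names all members and the other core clock genes. From the remaining lists it names genes that passed, otherwise up to 3 of largest change. It also names the 5 non-members most like Dbp and Arntl. Cell type markers are given as sums, with single genes besides for keratinocyte and neutrophil markers. Some genes this rule names are not reported here. The tests were checked on simulated data. DESeq2 1.42.0, limma-voom (limma 3.58.1), further scalings, filters and thresholds, and fits without single mice served as alternatives. Ranges and ratios without baseline butyrate replicate 3 were an alternative chosen after seeing the data. The groups are those of the labels, where the treatment named SCFA is sodium butyrate.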

Additional observations from a re-analysis of the deposited data

Results flagged for a closer look

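Every butyrate mouse lay below every CTL mouse in baseline skin and above every CTL mouse in lesional skin for Npas2, and the difference of the butyrate effects was 1.64 on the log2 scale, lesional minus baseline. By edgeR's quasi-likelihood test this difference had FDR = 0.840. Rorb showed the opposite order in every mouse, with a difference of -2.17 (FDR = 0.840), at 8 to 35 counts per library. Of the 21 clock genes examined these 2 had such an order. Butyrate and CTL mice did not overlap in 29.7% of all genes in baseline skin and in 44.9% in lesional skin. The share of all genes with opposite orders in the 2 sets was not computed, so the count is not a result about clock genes.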

How the results depend on the processing

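Counts of called genes moved with the tool, the threshold and the mice in the fit, and the cause was not tested. In lesional skin, butyrate gave 1 called gene by limma-voom, 124 by DESeq2 and 25 with only the compared mice. In baseline skin DESeq2 called 58 genes, and for the difference of the butyrate effects 37. For lesional against baseline skin, mean of both treatments, 511 genes were called with the strict filter, 1716 with no fold limit and 465 at FDR below 0.05. In CTL mice these counts were 1093 by DESeq2, 1918 with only the compared mice and 245 at FDR below 0.05, and in butyrate mice 698, 0 and 17, with 83 under no scaling. Of the other core clock genes, 1 was called by limma-voom, with no scaling and with no filter, 5 with no fold limit and 0 at FDR below 0.05, and in CTL mice 3 were called by DESeq2 and with only the compared mice.

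With 1 mouse left out in turn, the lone mouse of a group being assumed to vary like the other groups, called genes ranged from 120 to 1847 for lesional against baseline skin, from 0 to 1936 in CTL mice and from 0 to 2990 in butyrate mice. They ranged from 0 to 191 for butyrate in lesional skin, from 0 to 3777 in baseline skin and from 0 to 3275 for the difference. Of the 10 clock genes, 0 to 4 were called for butyrate in baseline skin and 0 to 3 for the difference. Of the other core clock genes, 0 to 6 were called for butyrate in baseline skin, 0 to 7 for the difference, 0 to 2 for lesional against baseline skin, and for that comparison 0 to 3 in CTL mice and 0 to 4 in butyrate mice. The highest counts were without baseline butyrate replicate 1, except the 2 of lesional against baseline skin, which were without replicate 3.

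The log2 fold changes listed here turned direction in at least 1 alternative, and none of those tested had passed the thresholds. By limma-voom Nfil3 became 0.0022 between lesional and baseline skin. With 1 mouse left out the change with butyrate in lesional skin ranged from -0.59 to 0.12 for Per1, -0.00035 to 0.80 for Per2, -0.022 to 0.15 for Per3, -0.91 to 0.052 for Dbp and -0.088 to 0.24 for Tef. In baseline skin it ranged from -0.29 to 0.0053 for Arntl, -0.71 to 0.35 for Per3, -1.68 to 0.037 for Nr1d1, -0.86 to 0.22 for Nr1d2, -1.10 to 0.40 for Dbp and -0.93 to 0.22 for Tef, with 1 end in each range without replicate 3 and the other without replicate 1 of baseline butyrate skin. Between lesional and baseline skin the range was -0.42 to 0.20 for Rora, -0.44 to 0.097 for Rorb and -0.50 to 0.55 for Nfil3. In CTL mice it was -0.44 to 0.16 for Npas2 and -0.18 to 0.025 for Per2, and in butyrate mice -0.47 to 0.34 for Per2, which also turned with no scaling (0.053 and 0.051). The ROR element count fell to 0 in windows that end at the start. No paired analysis was possible because the groups compared share fewer than 2 replicate numbers.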
